A study of Mus musculus with 82 samples.

Results

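The knockdown of a shorter variant of Btaf1 in cultured old hematopoietic stem cells (HSCs) was followed here in 6 mRNA-seq libraries, out of 82 samples in the study. The members are the libraries whose labels name the in vitro experiment. They hold 2 libraries with a scramble control shRNA (shControl), 2 with shRNA1 and 2 with shRNA2. The study compared transcription, chromatin and genome folding of HSCs from young and old mice, and asked whether a shorter Btaf1 transcript contributes to the changes of old HSCs. All 6 libraries came from wild-type old mice, which the methods give as male C57BL/6J of 24 to 26 months, with HSCs sorted from bone marrow as LSK CD34-Flk2-CD150+ cells. The cells were grown in an F12 medium with polyvinyl alcohol and cytokines, among them stem cell factor (SCF). They were transduced with lentivirus carrying the shRNA and a GFP marker, and GFP+ cells were sorted after 3.5 days. As described, controls shared the culture, the virus and the sort and differed in the shRNA. No source states how many mice or cultures lie behind a library, so the p-values below measure the spread between these libraries, which may be technical.

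BTAF1 is an ATPase of the SNF2 family that binds the TATA-binding protein (TBP) and takes it off promoter DNA, which makes it a general regulator of where and how often transcription by RNA polymerase II starts. TBP itself contacts the TATA box, a short element just ahead of the start site of a minority of genes. The shorter Btaf1 transcript starts where the canonical one does, ends earlier and so lacks the ATPase part. Both shRNAs match the end that only this form carries. Long-term HSCs are rare, mostly quiescent cells that are driven into division by cytokines in culture.

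The 6 libraries held between 37292602 and 42737054 counted reads, with 24478 to 25030 of 55376 genes detected. Correlations of log2 CPM (counts scaled to the size of the library) ran from 0.9961 to 0.9972 within a group and from 0.9939 to 0.9957 between control and knockdown libraries, over 19763 tested genes. The first principal component held 33% of the variance and placed both controls at one end (-14.7 and -15.57) and shRNA2 replicate 1 at the other (21), with shRNA2 replicate 2 at 8.04 and the shRNA1 libraries at 0.98 and 0.26. shRNA2 replicate 1 also stood apart in its interferon response genes, described below. Their part in its place on this component was not tested, and results that rest on it are given with and without it. The sorted identity was checked against its markers. Mecom, a transcription factor needed by long-term HSCs, lay between 200 and 216 CPM, Hlf, another, between 146 and 169 CPM, and Procr between 37.1 and 45.5 CPM. Other genes of the long-term HSC list were lower, among them Hoxb4 (3.0 to 5.27 CPM) and Hoxb5 (8.41 to 10.6 CPM). Cd34, whose product was absent from the surface of the cells as sorted before culture, lay between 503 and 744 CPM. Of the markers of other blood cells some were at or near 0, with Mpo at most 0.157 CPM, Elane at most 0.216 CPM, and S100a8, Cd3e and Il7r at 0 in every library. Others were present in all 6, among them Itga2b (443 to 578 CPM) and Pf4 (277 to 361 CPM) of the megakaryocyte list, Slc18a2 (316 to 460 CPM) of the mast cell list, the myeloid Prtn3 (157 to 243 CPM), Lyz2 (160 to 261 CPM) and Csf3r (83.7 to 118 CPM), the globin gene Hbb-bt (53.2 to 92.9 CPM) and the lymphoid Lck (13.1 to 18.7 CPM). These are bulk samples, in which fewer cells of a type and less RNA per cell cannot be told apart.

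The targeted gene was examined first. Below, library values are CPM after TMM scaling, given in the order shControl replicates 1 and 2, shRNA1 replicates 1 and 2, shRNA2 replicates 1 and 2. Btaf1 (chromosome 19, 36926079 to 37012752, plus strand, mm10) was at 138, 142, 109, 118, 112 and 113 CPM. All 4 knockdown libraries lay below both controls, a fall by 0.31 on the log2 scale (SE 0.05, adjusted p = 0.00151), and the effects of the shRNAs differed by -0.0044 (adjusted p = 0.979). These are counts over the whole gene. They add the canonical and the shorter transcript, so the depth of the knockdown of the shorter one cannot be read from them. Without shControl replicate 2 the adjusted p was 0.0745. Tbp, the partner of BTAF1, was at 96.7, 95.9, 98.8, 97.6, 92.1 and 93.1 CPM, and its log2 change was -0.01 (SE 0.05, adjusted p = 0.945). Of 29 tested members of a list of TBP, its TAFs and the general initiation factors, 1 passed at an adjusted p below 0.05, and that was Btaf1. Ide, a neighbour that encodes the insulin-degrading enzyme, was at 557, 551, 554, 541, 555 and 571 CPM (adjusted p = 0.979). Of 9 tested genes next to Btaf1 only Kif11, a mitotic motor, passed (-0.24, SE 0.05, adjusted p = 0.00756), and it belongs to the mitotic genes described below.

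A gene counted as called when it changed over 1.5-fold with p below 0.05 before adjustment, the cutoff of the study for its knockdown, in a 2-group fit of the 4 knockdown against the 2 control libraries. By this rule 484 genes were higher (2.45% of 19763) and 192 were lower (0.972%) after knockdown. With the adjusted p in place of the unadjusted, 115 were higher and 64 lower. Each shRNA was then compared with the controls alone, and 251 genes were higher (1.27%) and 82 lower (0.415%) in the same way with both. Both comparisons use the same 2 control libraries, so this overlap is a count that the rule fixes. Of these, 145 of the 251 and 55 of the 82 were called again without shControl replicate 1 (among 286 and 99), and without shControl replicate 2, 174 and 51 (among 330 and 76). In 246 of the 251 and in 82 of the 82 the knockdown libraries did not overlap the controls, and such a gap was also found, among all tested genes, in 12.6% above and 13.2% below. Many of the higher genes were scarce: 87 of the 251 had a mean under 1 CPM and 51 reached 5 CPM, against 19 and 36 of the 82 lower genes. Because changes of abundant pathway genes were mostly smaller than 1.5-fold, a second rule was added after the values were seen, an adjusted p below 0.05 at any fold. It gave 336 genes higher (1.7%) and 329 lower (1.66%), and all 665 also had an unadjusted p below 0.05 in the same direction with each shRNA alone. These comparisons reuse the libraries of the 2-group fit at a looser cutoff, so this agreement is largely fixed by the rule. Left without one of the controls, this rule called 75 higher and 66 lower (without replicate 1) or 84 and 66 (without replicate 2). Pathways are described by this second rule, and each list count is to be read beside these 1.7% higher and 1.66% lower. The median log2 fold change of all tested genes was 0.00379.

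The 12 largest increases with both shRNAs, among genes with a mean of at least 5 CPM, ran from 1.19 to 4.43 on the log2 scale, and 11 of the 12 passed at an adjusted p below 0.05. Chad, which encodes chondroadherin, a leucine-rich matrix protein that cells bind through integrins, led them. It was at 0.354, 0.351, 6.15, 6.52, 8.84 and 9.12 CPM, a 21.5-fold rise (log2 4.43, SE 0.27, adjusted p = 1.14e-06). Both controls were under 1 CPM and every knockdown library was above 6 CPM. Id3, an inhibitor of E-protein transcription factors and a target of BMP signalling, was at 54.3, 55.6, 147, 159, 165 and 171 CPM. Its 2.92-fold rise had the smallest error of the 12 (log2 1.54, SE 0.06, adjusted p = 5.41e-09). Rab11fip4, an adaptor of recycling endosomes, rose by 1.88 (SE 0.18), from 3.14 and 3.08 CPM to between 9.33 and 13.5 CPM. Robo3, a member of the Roundabout receptor family, and Dhrs3, an enzyme that turns retinal back to retinol, each rose by 1.5 on the log2 scale. The chemokine Ccl9 rose by 1.44 and Hpgds, a prostaglandin D synthase, by 1.41. Skil, a SMAD corepressor, was at 12, 14, 35.5, 30.6, 33.6 and 36.8 CPM (log2 1.40, SE 0.10, adjusted p = 4.77e-06). Slc40a1, the iron exporter ferroportin, rose by 1.28 (SE 0.17), and Gpr183, an oxysterol receptor, by 1.19 (SE 0.27, adjusted p = 0.049). Hmox1, the haem-degrading enzyme, was at 19, 31.8, 80.9, 69.9, 58.1 and 60 CPM. Of the 12 genes it had the widest ratio between its controls, and its log2 fold change of 1.41 (SE 0.28) had an adjusted p of 0.108.

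The 12 largest decreases ran from -0.81 to -1.52, with 10 of 12 past an adjusted p below 0.05. Cd48 (chromosome 1, 171682009 to 171705258), a SLAM-family surface protein whose absence is used to sort long-term HSCs, was at 46.5, 47.8, 14.1, 14.3, 20.9 and 16.3 CPM. It fell by 1.52 on the log2 scale (SE 0.14, adjusted p = 0.000421), and the highest knockdown library was below 21 CPM. Bcam, a laminin receptor, fell by 1.10 (SE 0.11) and the tetraspanin gene Tspan2 fell by 0.97 (SE 0.15). Ltb, a TNF-family cytokine, fell by 0.95 (SE 0.11) and Relb, an NF-kB subunit, fell by 0.91 (SE 0.13). The adhesion genes Itgal, the integrin alpha chain of LFA-1, and Lgals1, a galectin, fell by 0.88 (SE 0.17) and 0.87 (SE 0.10). Hdac9, a class IIa histone deacetylase, fell by 0.88 (SE 0.16, adjusted p = 0.0347). Ifngr2, a chain of the interferon gamma receptor, was at 30.6, 30.1, 16.9, 17.6, 17.9 and 16.9 CPM (log2 -0.81, SE 0.08, adjusted p = 6.25e-05). Adjusted p-values of 0.0706 and 0.0636 were found for Gem, a small GTPase (log2 -1.13, SE 0.22), and Nr4a1, an immediate early nuclear receptor (log2 -1.11, SE 0.26).

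**Figure D1:**
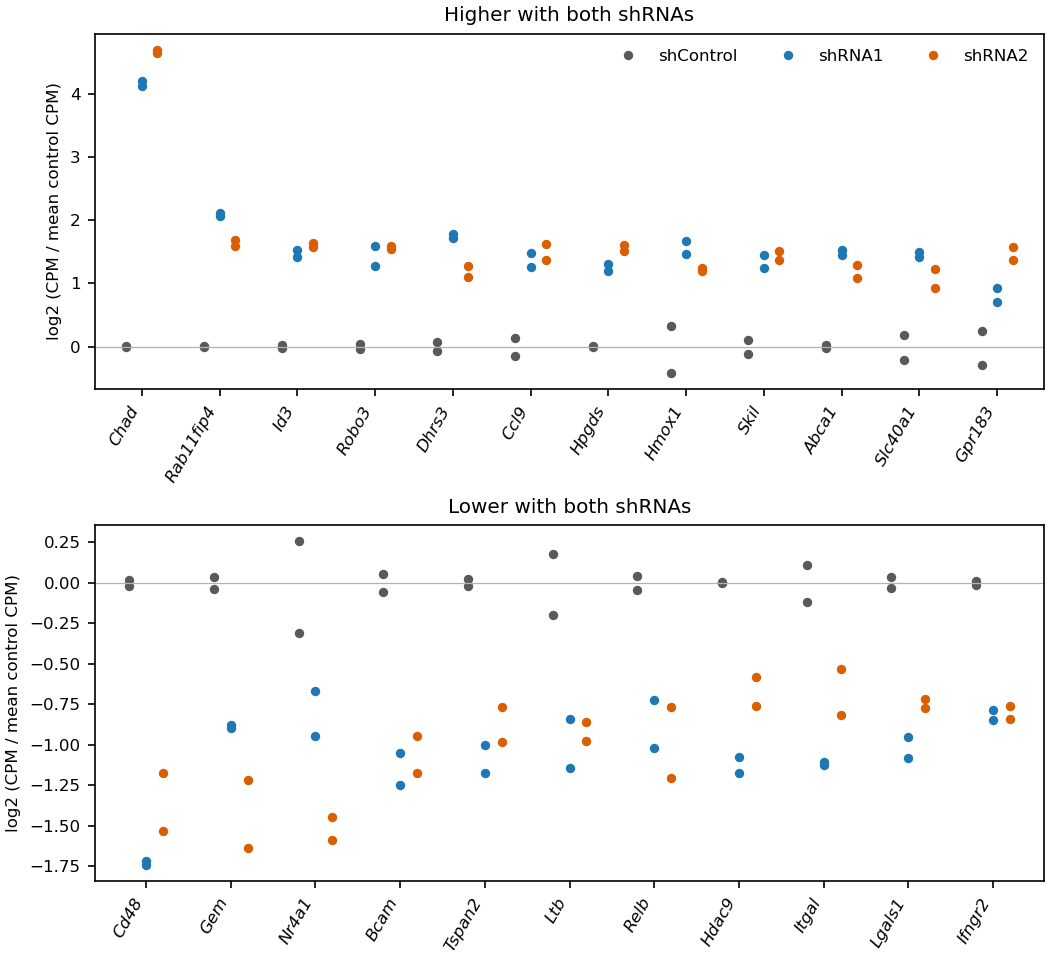
Log2 ratio of each library's CPM to the mean control CPM (vertical axis) for the 12 largest increases and 11 of the 12 largest decreases with both shRNAs (horizontal axis), with 1 point per library for shControl, shRNA1 and shRNA2. The knockdown points of Chad lie more than 4 log2 units above the controls, and the 23 genes shown were chosen for having no overlap with the control points.

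Since BTAF1 acts on TBP, promoters were searched for TATAAA on the gene strand, lying wholly between 40 and 15 bases before the start site. The RefSeq promoter sequences of GRCm38.p6 reach from 250 bases before to 50 after the start. A promoter was matched for 11622 of the 19763 tested genes. The element was in 165 of them (1.42%), in 5 of 139 matched genes higher with both shRNAs (3.6%) and in 1 of 49 lower with both (2.04%). The 5 were Chad, Abca1, Adra2a, Crisp1 and Fetub, and the 1 was Hdac9. Anywhere in the window and on either strand, TATAAA was in 9.09% of matched tested promoters, in 27 of the 139 (19.4%) and in 2 of the 49 (4.08%). A match is a run of letters and no measured binding site. The sequences of Chad and Abca1, the 2 raised genes with the element that reach a mean of 5 CPM, and of Hdac9, the lowered one, are shown from 5′ to 3′ on the gene strand, with TATAAA in capitals. It begins 28 bases before the start in Chad and 29 bases before it in Abca1 and Hdac9.
Chad, chr11:94564797-94565096, plus strand: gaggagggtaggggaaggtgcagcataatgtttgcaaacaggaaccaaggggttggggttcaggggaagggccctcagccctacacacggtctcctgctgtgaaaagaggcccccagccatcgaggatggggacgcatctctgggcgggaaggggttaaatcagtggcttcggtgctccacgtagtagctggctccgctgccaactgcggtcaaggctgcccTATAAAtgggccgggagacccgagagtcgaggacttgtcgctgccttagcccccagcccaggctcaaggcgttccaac
Abca1, chr4:53159846-53160145, minus strand: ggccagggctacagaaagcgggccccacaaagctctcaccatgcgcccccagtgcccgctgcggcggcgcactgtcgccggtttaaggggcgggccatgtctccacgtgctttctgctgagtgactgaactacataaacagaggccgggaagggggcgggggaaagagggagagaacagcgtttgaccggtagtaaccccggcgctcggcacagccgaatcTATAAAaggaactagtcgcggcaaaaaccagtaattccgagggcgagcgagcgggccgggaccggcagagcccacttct
Hdac9, chr12:34917046-34917345, minus strand: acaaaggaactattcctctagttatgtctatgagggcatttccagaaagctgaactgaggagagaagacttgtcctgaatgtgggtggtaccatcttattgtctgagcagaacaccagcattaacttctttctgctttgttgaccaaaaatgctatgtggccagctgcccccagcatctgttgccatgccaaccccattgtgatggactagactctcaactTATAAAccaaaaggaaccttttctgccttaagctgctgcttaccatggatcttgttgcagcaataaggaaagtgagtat

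Genes of cholesterol synthesis fell with both shRNAs. The pathway builds cholesterol from acetyl-CoA through mevalonate and squalene, and its genes are switched on together by the factor SREBP2 when sterols run low. Of 25 tested members of the list, 18 passed lower and 0 higher (against 1.66% and 1.7% of all tested genes), the median was -0.44 (-0.55 with shRNA1 and -0.35 with shRNA2), and 25 of the 25 had a negative fold change. The summed level of the list was 8824 and 8640 CPM in the controls, 6062 and 5983 CPM with shRNA1, and 6718 and 6845 CPM with shRNA2, with no overlap. In 24 of the 25 genes every knockdown library lay below both controls, against 13.2% of all tested genes. Hmgcs1, which makes the precursor of mevalonate, was at 1297, 1301, 741, 746, 875 and 917 CPM (log2 -0.66, SE 0.10, adjusted p = 0.0431). The effect of shRNA2 on Hmgcs1 was smaller than that of shRNA1 by 0.27 (adjusted p = 1.31e-06). Further along the mevalonate arm Mvd (-0.60, SE 0.09), Mvk (-0.60, SE 0.10), Idi1 (-0.53, SE 0.06), Fdps (-0.41, SE 0.06) and Pmvk (-0.33, SE 0.06) fell.

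Sqle, the squalene epoxidase, fell by 0.38 (SE 0.05). Lss, which closes the sterol rings, was at 660, 603, 347, 367, 402 and 417 CPM, a fall by 0.72 (SE 0.08, adjusted p = 0.00241). Cyp51 (-0.42, SE 0.05), Tm7sf2 (-0.74, SE 0.08), Msmo1 (-0.44, SE 0.06), Hsd17b7 (-0.68, SE 0.07) and Sc5d (-0.42, SE 0.04) trim lanosterol to cholesterol and fell with it. Fdft1, Nsdhl and Dhcr7 had log2 changes of -0.45, -0.47 and -0.44 with adjusted p-values of 0.129, 0.0602 and 0.118. Srebf2, which encodes SREBP2, changed by -0.11 (adjusted p = 0.141) and Ebp by -0.04 (adjusted p = 0.825). Insig1, the sterol-dependent brake on SREBP2, fell by 0.33 (SE 0.05). In the direction of export, Abca1, which loads cholesterol onto lipid-poor apolipoprotein, was at 15.3, 14.7, 43.4, 40.8, 36.9 and 31.7 CPM and rose by 1.35 (SE 0.12, adjusted p = 6.19e-05). Abcg1, a second exporter that was chosen after its values were seen, was at 46.9, 45.1, 72.2, 75.4, 75.6 and 72.7 CPM and rose by 0.69 (SE 0.06, adjusted p = 1.94e-05). Of the 25 genes, 9 passed without shControl replicate 2.

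**Figure D2:**
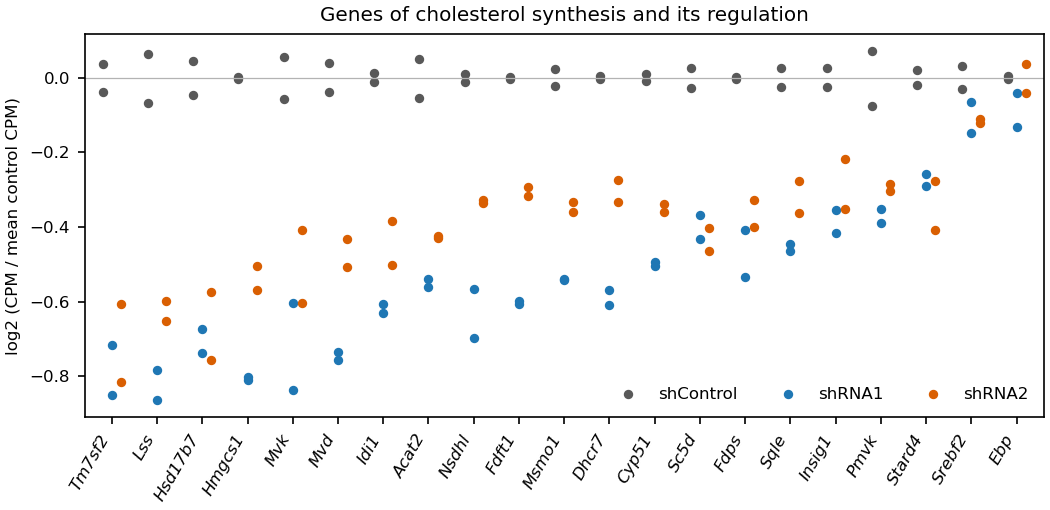
Log2 ratio of each library's CPM to the mean control CPM (vertical axis) for 21 of the 25 genes of the cholesterol list (horizontal axis, ordered by fold change), with 1 point per library. Every knockdown point lies below both control points in 20 of the 21 genes shown, and the shRNA1 points are the lowest in most of the middle of the order.

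Promoters of the cholesterol genes were searched, after the values were seen, for CCAAT on either strand, the element read by NF-Y, and for TCACNCCAC, a form of the sterol regulatory element. CCAAT was in 16 of 17 matched list promoters (94.1%), in 42.5% of tested promoters and in 26 of 32 promoters of the mitosis list (81.2%). TCACNCCAC was in 1 of the 17 (5.88%) and in 1.39% of tested promoters. That promoter was of Hmgcs1, and it is shown with its 4 CCAAT copies in capitals, all read as ATTGG on the gene strand. TCACNCCAC begins 137 bases before the start.
Hmgcs1, chr13:119690101-119690400, plus strand: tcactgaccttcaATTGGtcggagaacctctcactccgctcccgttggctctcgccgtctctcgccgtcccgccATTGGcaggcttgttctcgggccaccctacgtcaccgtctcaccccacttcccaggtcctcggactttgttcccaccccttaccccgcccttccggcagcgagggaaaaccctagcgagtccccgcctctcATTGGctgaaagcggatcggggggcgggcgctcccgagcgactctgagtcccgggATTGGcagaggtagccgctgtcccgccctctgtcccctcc

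Genes of fatty acid synthesis, which share acetyl-CoA with the sterol pathway, moved less. Of 24 tested, 7 passed lower and 0 higher, with a median of -0.15. Acly, which makes cytosolic acetyl-CoA from citrate, was at 1347, 1235, 971, 983, 1046 and 998 CPM (log2 -0.37, SE 0.04, adjusted p = 0.000185). Acss2 fell by 0.37 (SE 0.05), and the desaturase genes Scd1 and Fads2 fell by 0.27 (SE 0.05) and 0.18 (SE 0.04). Fasn, the fatty acid synthase, was at 706, 663, 532, 514, 631 and 684 CPM, where the shRNA2 libraries overlapped the controls (log2 -0.21, adjusted p = 0.595). Srebf1 was level (0.07, adjusted p = 0.619). Without shControl replicate 1 or 2, 1 or 2 of the 24 passed.

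**Figure D3:**
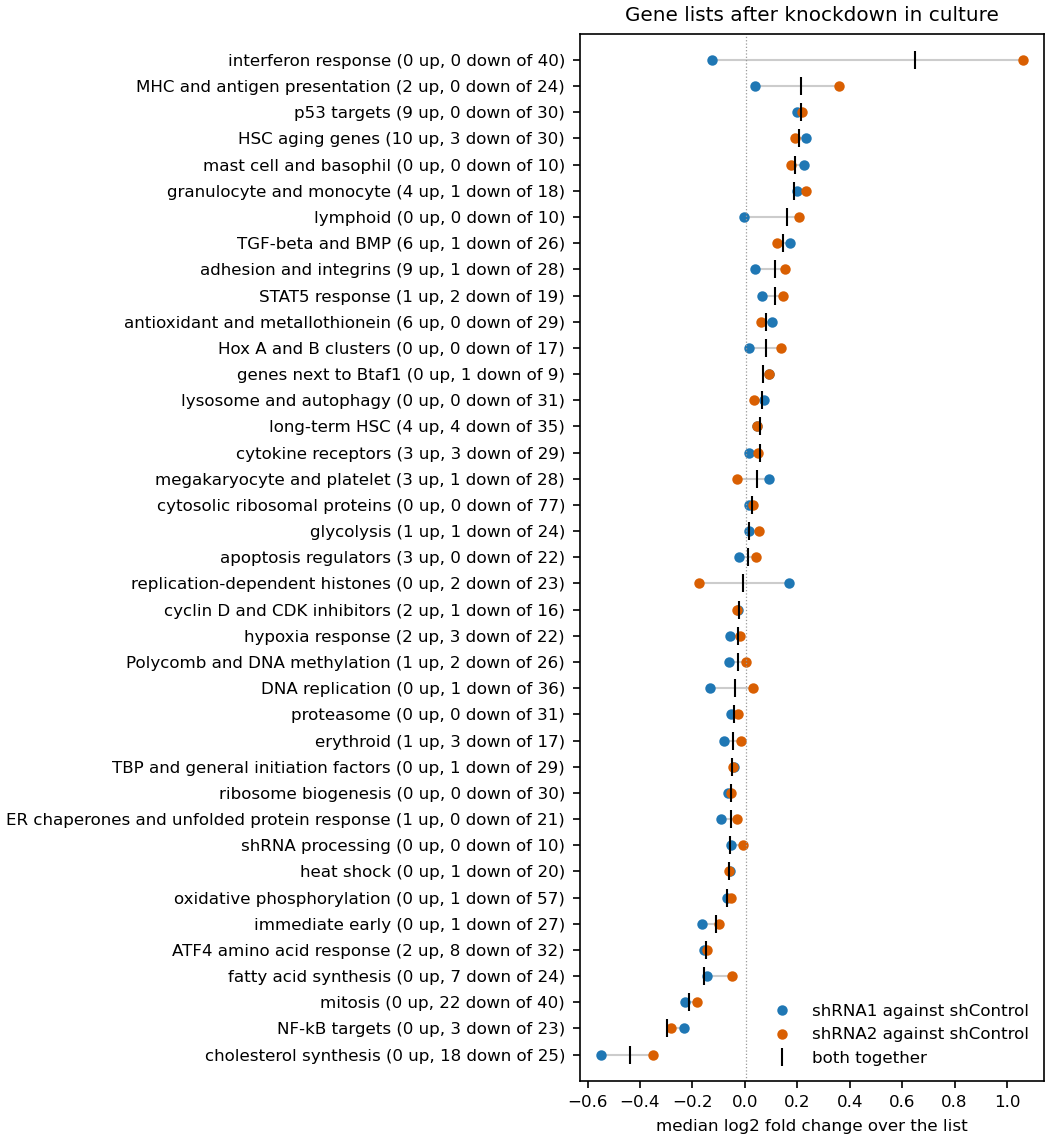
Median log2 fold change against shControl (horizontal axis) over the tested genes of each of the 39 lists (vertical axis), for shRNA1, shRNA2 and both together, with the dotted line at the median of all tested genes and, in brackets, the number of genes past an adjusted p below 0.05. Cholesterol synthesis has the lowest median with each shRNA, and interferon response and replication-dependent histones are the lists whose shRNA points lie farthest apart on either side of the line.

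Some genes of TGF-beta and BMP signalling rose. These ligands signal through receptor kinases to SMAD proteins, and their targets include the Id genes and the inhibitory SMADs that damp the pathway. Of 26 tested members 6 passed higher and 1 lower, against 1.7% and 1.66% of all tested genes, with a median of 0.15. At 1.5-fold 5 were called higher with both shRNAs, against 1.27% of all tested genes. Id2 was at 79.4, 78, 124, 136, 143 and 147 CPM (log2 0.80, SE 0.06, adjusted p = 1.5e-05). The inhibitory Smad6 was at 6.4, 7.89, 12.3, 12.6, 14.6 and 17.2 CPM (log2 0.99, SE 0.15, adjusted p = 0.00237). With Id3 and Skil, described above, and the inhibitory Smad7, all 5 are target or feedback genes of the pathway. Smad7 was called at 1.5-fold but was not among the 6 past an adjusted p below 0.05. Id1 was at 67, 70.3, 82.5, 84.9, 107 and 111 CPM, above both controls in all 4 libraries, and its adjusted p was 0.194 (log2 0.49, SE 0.15). Among the receptors Tgfbr2 rose by 0.40 (SE 0.07, adjusted p = 0.00404) and Bmpr1a by 0.42 (SE 0.09, adjusted p = 0.0141), while the coreceptor Tgfbr3 fell by 0.34 (SE 0.06, adjusted p = 0.012). Without shControl replicate 1, 3 of the 26 passed higher.

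A group of 3 genes of retinoid metabolism and response, put together after the values were seen, is given without a list test. Rarb, a retinoic acid receptor that is itself induced by retinoic acid, was at 5.53, 5.3, 11.8, 12.7, 11.2 and 10.2 CPM (log2 1.08, SE 0.13, adjusted p = 0.000355). Cyp26b1, which degrades retinoic acid, was at 1.18, 2.16, 6.29, 6.33, 5.94 and 5.78 CPM (log2 1.87, SE 0.22, adjusted p = 0.000265). The other was Dhrs3, described above.

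Some targets of p53 rose. The tumour suppressor p53 raises genes of growth arrest and cell death after DNA damage and other stress. Of 30 tested list members 9 passed higher and 0 lower, against 1.7% and 1.66% of all tested genes. Of the 30, 7 had a negative fold change, and the median was 0.21. At 1.5-fold 6 were called higher, against 2.45% of all tested genes, and 4 of the 30 with both shRNAs, against 1.27%. Phlda3, an inhibitor of AKT, was at 9.5, 10, 19.3, 19.6, 23.7 and 21.9 CPM (log2 1.12, SE 0.11, adjusted p = 6.42e-05). Ccng1, cyclin G1, was at 160, 159, 233, 252, 217 and 242 CPM (log2 0.57, SE 0.05, adjusted p = 5.94e-05). Both had a clear gap between control and knockdown libraries. Zmat3, an RNA-binding protein, rose by 1.09 (SE 0.19), Pmaip1, the death protein NOXA, by 0.99 (SE 0.22), Cdkn1a, the cell cycle inhibitor p21, by 0.42 (SE 0.08) and Bax by 0.26 (SE 0.05). Mdm2, a canonical p53 target, was at 99.7, 107, 104, 108, 110 and 103 CPM (log2 0.04, adjusted p = 0.771), and its groups overlapped. Trp53 itself changed by -0.07 (adjusted p = 0.434). Without shControl replicate 1 or 2 the count was 2 or 3. Of 22 apoptosis regulators 3 passed higher, Bax and Pmaip1 from this list and the survival gene Bcl2 (0.26, SE 0.05, adjusted p = 0.00827).

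Mitotic genes, which cells use to condense and separate chromosomes, fell by small steps. Of 40 tested, 22 passed lower and 0 higher, against 1.66% and 1.7% of all tested genes. The median was -0.21, and no member reached the 1.5-fold rule. The summed level of the list was 6113 and 6184 CPM in the controls, 5279 and 5163 CPM with shRNA1, and 5223 and 5543 CPM with shRNA2. In 36 of the 40 genes all knockdown libraries lay below both controls, against 13.2% of all tested genes. Ccnb1, cyclin B1, was at 202, 210, 153, 156, 135 and 148 CPM (log2 -0.48, SE 0.05, adjusted p = 0.000208). Plk1, the polo-like kinase, fell by 0.39 (SE 0.05), Cenpa, the centromeric histone, fell by 0.35 (SE 0.05) and the condensin subunit Ncapg fell by 0.30 (SE 0.05). Mki67, which encodes the proliferation marker Ki-67, was at 328, 336, 297, 274, 284 and 314 CPM (log2 -0.18, SE 0.05, adjusted p = 0.0569). Of 36 DNA replication genes, 1 passed lower, and that was Ccne2 (-0.25, SE 0.06). Their summed level was 7024 and 6775 CPM in the controls, 6431 and 6288 CPM with shRNA1, and 7317 and 7040 CPM with shRNA2, so that shRNA1 lay below and shRNA2 above both controls. Rbl2, a pocket protein that restrains the cell cycle, rose by 0.26 (SE 0.04), and Cdkn1c, the inhibitor p57 that marks quiescent HSCs, fell by 0.59 (SE 0.10). The mitotic count leaned on single libraries and on scaling. It was 14 with scaling to total counts in place of TMM, 3 without shControl replicate 1, 2 without shControl replicate 2, 13 without shRNA1 replicate 1 and 14 without shRNA1 replicate 2, while the median stayed between -0.24 and -0.19.

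Genes of the long-term HSC list moved in both directions. Of 35 genes on it 4 passed higher and 4 lower, with a median of 0.06. The 4 higher include Cd34, which the sort selects against, so the counts are no balance of HSC identity. Cd34, a sialomucin that is absent from the surface of sorted long-term HSCs in mice, was at 505, 503, 699, 701, 744 and 730 CPM (log2 0.51, SE 0.04, adjusted p = 5.32e-06). Txnip, a brake on glucose uptake, rose by 0.45 (SE 0.05) and Ndn, a growth suppressor, by 0.37 (SE 0.07), and the fourth was Rarb. The lower genes were Ltb, Cdkn1c, Tie1, an endothelial and HSC receptor, and Slamf1, which encodes CD150. Slamf1 was at 78.3, 74.8, 54.4, 55.7, 63.2 and 68.1 CPM. Kit, the receptor for SCF, was higher with shRNA1 (872 and 872 CPM) than in controls (702 and 692 CPM), and shRNA2 (703 and 738 CPM) lay below shRNA1 by 0.28 (adjusted p = 1.35e-06).

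Of 30 tested genes that mark HSC aging, 29 were higher with age in the fresh HSCs of the study. After knockdown 10 of the 30 passed higher and 3 lower, against 1.7% and 1.66% of all tested genes, with a median of 0.21. Those that rose were Gda, a guanine deaminase (0.79, SE 0.07), Plscr2 (0.60, SE 0.06), Aldh1a1, a retinal dehydrogenase (0.43, SE 0.05), Selp, P-selectin (0.25, SE 0.03), the metallothioneins Mt1 (0.34) and Mt2 (0.43), and the surface genes Itgb3 (0.35), Jam2 (0.57), Alcam and Enpp5. Plscr2 was at 97.2, 97.3, 134, 151, 161 and 144 CPM. Clu, clusterin, was at 210, 208, 168, 161, 158 and 160 CPM (log2 -0.37, SE 0.04, adjusted p = 0.000206), and Vwf, von Willebrand factor, was at 480, 491, 382, 395, 387 and 433 CPM (log2 -0.28, SE 0.05, adjusted p = 0.00398). With Slamf1 these were the members that fell. Among 28 megakaryocyte and platelet genes 3 passed higher and 1 lower (median 0.05). The higher ones were Selp, Itgb3 and Ppbp and the lower one was Vwf. The count of aging genes that passed higher was 5 without shControl replicate 1 and 6 without shControl replicate 2.

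Some antioxidant and adhesion genes rose as well. Of 29 antioxidant and metallothionein genes 6 passed higher and 0 lower (median 0.08), and 3 passed without shControl replicate 1. Gclm, the modifier subunit of glutathione synthesis, was at 328, 340, 529, 521, 482 and 476 CPM (log2 0.59, SE 0.05, adjusted p = 1.46e-05). Gpx1, a glutathione peroxidase, rose by 0.26 (SE 0.04), and the ferritin chain Fth1 and the pentose phosphate enzyme Taldo1 each rose by 0.16 (SE 0.04). Nfe2l2, the factor NRF2 that drives several of these genes, changed by 0.05 (adjusted p = 0.795), and 2 of its best known targets, Nqo1 (0.11, adjusted p = 0.578) and Gclc (0.09, adjusted p = 0.514), did not pass. Of 28 adhesion genes 9 passed higher and 1 lower (median 0.12, but 0.06 without shControl replicate 2 or without shRNA2 replicate 2). Itgam, the CD11b chain, rose from 0.402 and 0.297 CPM to between 1.35 and 1.93 CPM, Pecam1 rose by 0.32 (SE 0.06) and Itgb7 by 0.67 (SE 0.14). Without shControl replicate 1 or 2 the count was 4 or 2.

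Some erythroid and myeloid genes passed (1.7% of all tested genes passed higher and 1.66% lower), and the sums of the granulocyte and mast cell lists were higher in every knockdown library than in the controls. In 10 of 18 granulocyte and monocyte genes and 6 of 10 mast cell and basophil genes all 4 knockdown libraries lay above both controls, against 12.6% of all tested genes. Tfrc, the transferrin receptor, was at 111, 111, 65, 62.7, 68.9 and 69.2 CPM (log2 -0.74, SE 0.06, adjusted p = 5.32e-06). It was 1 of 3 of 17 tested erythroid genes that passed lower, with Epor (-0.38, SE 0.09) and Hbb-bs (-0.61, SE 0.13), a globin gene whose reads can be shared with its near-identical copy, and 1, Epb42, passed higher at under 2 CPM. Of 18 granulocyte and monocyte genes 4 passed higher and 1 lower (median 0.19, but 0.31 without shRNA1 replicate 2 and 0.41 without a filter on low counts). They were the receptor Csf3r (0.41, SE 0.05), Cd68 (0.58, SE 0.08), Itgam, the myeloid factor Spi1 (0.21, SE 0.05) and, lower, the repressor Gfi1 (-0.69, SE 0.11), and 2 passed higher without shControl replicate 2. The summed level of this list was 711 and 717 CPM in the controls, 748 and 746 CPM with shRNA1, and 897 and 881 CPM with shRNA2. The sum of the mast cell and basophil list was 1883 and 1891 CPM in the controls against 2084 to 2290 CPM after knockdown. Most of it came from Kit, Srgn, Gata2 and Slc18a2, and Kit and Gata2 are also in the long-term HSC list. The mast cell genes Cpa3 (at most 3.35 CPM), Fcer1a (2.30 CPM) and Ms4a2 (0.536 CPM) were scarce, and 6 listed members were at 0. Of 10 tested genes 0 passed by adjusted p in edgeR and 2 in DESeq2, and 5 were higher at an unadjusted p below 0.05 in edgeR, against 7.72% of all tested genes higher and 7.55% lower. Of 10 tested lymphoid genes 0 passed by either tool (2 higher and 1 lower unadjusted in edgeR), and 7 listed members were at 0. The part of these lineage genes in the other results was not tested.

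A few inflammatory and amino acid genes fell. Of 23 NF-kB targets 0 passed higher and 3 lower, Relb, Ltb and Nfkb2 (-0.42, SE 0.10, adjusted p = 0.0415). The count was 7 without shControl replicate 1. The median of -0.30 rested on a control library, since it was -0.02 without shControl replicate 2, in which Cxcl2 was at 8.81 CPM against 1.42 CPM in the other control. Of 32 genes of the ATF4 amino acid response 8 passed lower and 2 higher (median -0.15). The amino acid transporters Slc7a5 (-0.21, SE 0.04) and Slc7a1 (-0.30, SE 0.06) fell, and Trib3 fell by 0.29 (SE 0.06). Vldlr (0.58, SE 0.07) and Cebpb (0.44, SE 0.08) rose. Without shControl replicate 1 or 2 the count of lower genes was 0. Of 29 cytokine receptors 3 passed in each direction, with Csf2rb (0.33, SE 0.05) and Csf2rb2 (0.37, SE 0.07), near-identical common beta chains that may share reads, higher and Il2rg, the common gamma chain (-0.34, SE 0.06), lower. Socs2, a STAT5 target, was at 139, 132, 88.9, 93.8, 111 and 106 CPM (log2 -0.44, SE 0.08, adjusted p = 0.021).

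Lists of the basic cell machinery held few or no calls. Of 77 ribosomal protein genes 0 passed by adjusted p in edgeR or DESeq2, 4 had an unadjusted p below 0.05 in edgeR, and the median was 0.03. The adjusted count was also 0 in edgeR for 31 proteasome genes (4 unadjusted, median -0.04), 30 ribosome biogenesis genes (5 unadjusted, median -0.05), 31 lysosome genes (9 higher and 1 lower unadjusted, median 0.06) and 10 shRNA processing genes (1 unadjusted, median -0.06). DESeq2 passed 1 lysosome and 1 shRNA processing gene. Of 57 genes of oxidative phosphorylation 1, Sdha, passed lower (-0.16, SE 0.04, adjusted p = 0.0452) and 2 did in DESeq2. In edgeR 14 of the 57 were lower and 0 higher at an unadjusted p below 0.05, against 7.55% and 7.72% of all tested genes, 49 had a negative fold change (median -0.07), and 24 lay below both controls in all knockdown libraries, against 13.2% of all tested genes. Ezh1, a Polycomb methyltransferase that HSCs use in quiescence, rose by 0.41 (SE 0.07, adjusted p = 0.00369), and Dnmt3b, a DNA methyltransferase, was at 128, 128, 94.2, 89, 107 and 106 CPM (log2 -0.37, SE 0.07, adjusted p = 0.0098).

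The effects of the shRNAs were also set against each other, without the controls. At 1.5-fold and an unadjusted p below 0.05, 591 genes differed between shRNA2 and shRNA1 (2.99%), 296 above and 295 below, and 177 did so at an adjusted p below 0.05. Of the genes kept for both shRNAs, 11 of the 251 higher and 3 of the 82 lower were among the 591. Cd164, a sialomucin of HSCs, was at 231, 226, 212, 216, 124 and 119 CPM, and shRNA2 lay below shRNA1 by 0.82 (adjusted p = 2.61e-13). Mob1b, a Hippo pathway adaptor, was at 46.7, 53.4, 50.8, 51.9, 29.5 and 28 CPM (difference -0.84, adjusted p = 2.15e-08). In both, shRNA1 overlapped or nearly reached the controls and shRNA2 did not. Fhdc1 was at 9.28, 9, 19.6, 21.2, 10.4 and 11.9 CPM (difference -0.87, adjusted p = 1.31e-05), here with shRNA1 apart.

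Interferon response genes, which cells switch on after sensing viral or other foreign nucleic acid, were highest in a single library. In shRNA2 replicate 1 all 40 tested genes were above both controls and 40 of 40 were the highest of the 6 libraries. The median log2 ratio to the control mean was 1.56 in this library, 0.22 in shRNA2 replicate 2, and -0.06 and -0.19 in the shRNA1 libraries. In shRNA2 replicate 2, 33 of the 40 were above both controls and 4 below, against 7 above and 19 below in shRNA1 replicate 1 and 4 above and 29 below in shRNA1 replicate 2. Of all tested genes, between 37.1% and 37.8% lay above both controls in each of the 4 libraries and 37% to 37.3% below. The summed level was 2248, 2150, 1974, 1875, 5111 and 2521 CPM. Ifit1, an antiviral RNA-binding protein, was at 17.5, 19.1, 21.4, 12.6, 193 and 19.3 CPM, and Usp18, a brake on the interferon receptor, at 28.8, 27.3, 27.9, 23.6, 171 and 33 CPM. In the 2-group fit 0 of the 40 passed by adjusted p, 0 had an unadjusted p below 0.05 (edgeR and DESeq2 alike) and 0 were called at 1.5-fold. The median log2 fold change of the list was 0.65 with all libraries and -0.0044 without shRNA2 replicate 1. Ly6a, the Sca-1 antigen used in the sort and an interferon-responsive gene, was at 98.5, 102, 115, 118, 314 and 185 CPM. For 24 genes of antigen presentation the median was 0.21 with all libraries and 0.12 without shRNA2 replicate 1, and 2 passed with it, 4 without it and 0 without shControl replicate 1 or 2. The median of the antigen presentation list was 0.04 with shRNA1 and 0.36 with shRNA2, and DESeq2 passed 6 with all libraries. In shRNA2 replicate 2, 23 of the 24 lay above both controls, against 37.2% of all tested genes. H2-DMa, a peptide loader of MHC class II, was at 64.5, 65, 78.1, 79.3, 81.9 and 83.4 CPM (log2 0.32, SE 0.05, adjusted p = 0.0045). Without shRNA2 replicate 1, 484 genes were higher and 185 lower at 1.5-fold. The fits of each shRNA alone then gave 229 higher and 71 lower with both, and 19 of the 25 cholesterol genes and 21 of the 40 mitotic genes passed.

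**Figure D4:**
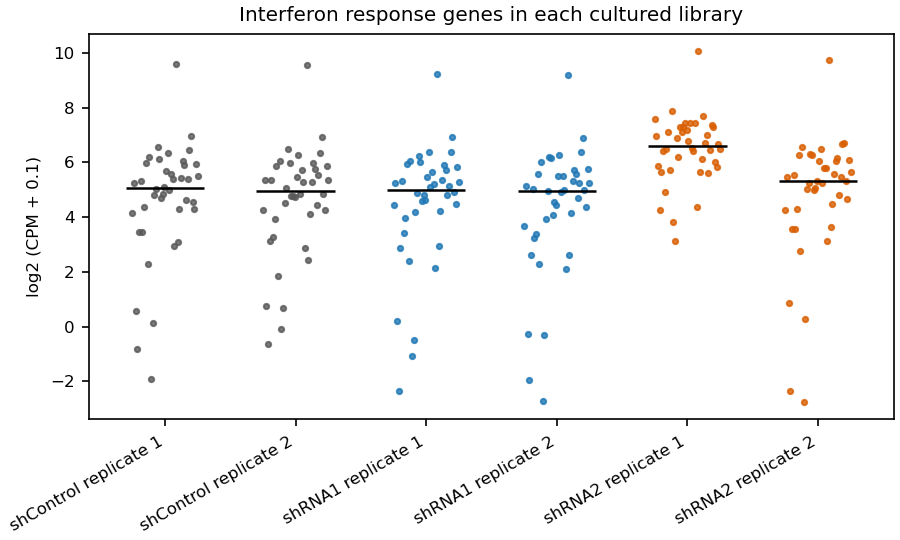
Log2 (CPM + 0.1) of the 40 interferon response genes (vertical axis, 1 point per gene, horizontal bar at the median) in each of the 6 cultured libraries. The points of shRNA2 replicate 1 are shifted up as a group, while the other shRNA2 library overlaps the controls.

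The same shRNAs were used in old HSCs that were transplanted into recipients, where GFP+ HSCs (LSK CD48-CD150+) were sorted from bone marrow of recipients pooled by library, again with 2 libraries for each shRNA and 2 controls. In those libraries 290 of 20350 tested genes were higher after knockdown (1.43%) and 165 were lower (0.811%). Of the 224 tested genes raised with both shRNAs in culture, 10 were higher (4.46%) and 10 were lower (4.46%) after transplantation, with a median of 0.04. Of 70 lowered ones 5 were higher (7.14%) and 2 were lower (2.86%), with a median of 0.17. Thus 12 genes were called the same way and 15 the opposite way. With adjusted p-values in place of unadjusted ones in both experiments, 0 genes were called the same way (edgeR). Gimap3, a GTPase of lymphocytes, and Lrp1, a lipoprotein receptor, were higher in both, as were the scarce Tspan18 and Pfn4. Tacr1, the substance P receptor, was lower in both (-0.83 and -1.46). Cyp26b1 and Rarb, raised in culture, were lower after transplantation (-0.72 and -0.79).

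Differences between the experiments were tested by an interaction term over all 12 libraries, which 45 of 21443 genes passed at an adjusted p below 0.05 (0.21%). Of the 24 largest changes in culture, 10 were among them, a count that the choice of these genes by their change in culture favours. Cd48, with -1.52 in culture, was at 1.17 CPM in transplanted controls and 2.12 CPM in transplanted knockdown HSCs (log2 0.85). The transplanted cells were sorted for absence of CD48 on their surface. Chad changed by 4.43 in culture and -0.14 after transplantation. Btaf1 itself fell by 0.31 in culture and by 0.37 after transplantation, without a detectable difference (0.06, SE 0.09, adjusted p = 0.919). The mitotic list had a median of -0.21 in culture and 0.28 after transplantation, and 4 of its 40 genes passed the interaction. At an unadjusted p below 0.05, 34 of the 40 were lower in culture and 0 higher, against 4.6% and 4.15% of all tested genes, with a median difference of -0.52. For cholesterol synthesis the medians were -0.44 and -0.21, and 1 of 25 genes, Hsd17b7, passed (7 lower in culture and 0 higher at an unadjusted p below 0.05). The HSC aging list had a median of 0.21 in culture and -0.28 after transplantation. By the interaction term 0 of its 30 genes passed at an adjusted p below 0.05 (edgeR), 7 were higher in culture at an unadjusted p below 0.05 and 0 lower, and the median difference was 0.36.

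The study asked whether the knockdown moves genes against their change with age, which it examined in transplanted HSCs. The values here are for the cultured cells. In freshly sorted HSCs, 1010 of 21522 genes were higher in old (8 libraries) than in young mice (4 libraries) at 1.5-fold and an adjusted p below 0.05 (4.69%), and 608 were lower (2.83%). Of 226 tested genes raised with both shRNAs, 55 were higher with age (24.3%) and 26 lower (11.5%). Of 71 lowered ones 9 were higher (12.7%) and 13 lower (18.3%). Read from the side of age, 92 of 923 age-raised genes were higher after knockdown in culture (9.97%) and 15 were lower (1.63%), with a median of 0.14. Of 444 age-lowered genes 38 were higher (8.56%) and 26 lower (5.86%), with a median of 0.05. All 4 shares exceeded the matching shares of all tested genes, 2.45% higher and 0.972% lower, and the difference was not tested. By the rule of an adjusted p at any fold, 70 of the 923 were higher (7.58%) and 25 lower (2.71%). Of the 444, 20 were higher (4.5%) and 22 lower (4.95%) by that rule, against 1.7% and 1.66% of all tested genes. Gpr183 (8.57 CPM in young and 127 CPM in old HSCs), Hpgds (11.1 and 40.5 CPM), Dhrs3 (13.6 and 42.3 CPM) and Robo3 (4.37 and 11.3 CPM) are higher with age and rose after knockdown. Cd48, Ltb, Tspan2 and Lgals1 are lower with age and fell after knockdown. Against their age change, Thbd, thrombomodulin (0.95 with age and -0.70 after knockdown), Synpo (1.75 and -0.82), Gem (1.11 and -1.13) and Gpr84 (0.64 and -0.94) were lowered, while Gimap7 (-2.65 and 2.61) and Smad6 (-1.23 and 0.99) were raised. Btaf1 itself was higher in old HSCs by 0.53, below the 1.5-fold limit.

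**Figure D5:**
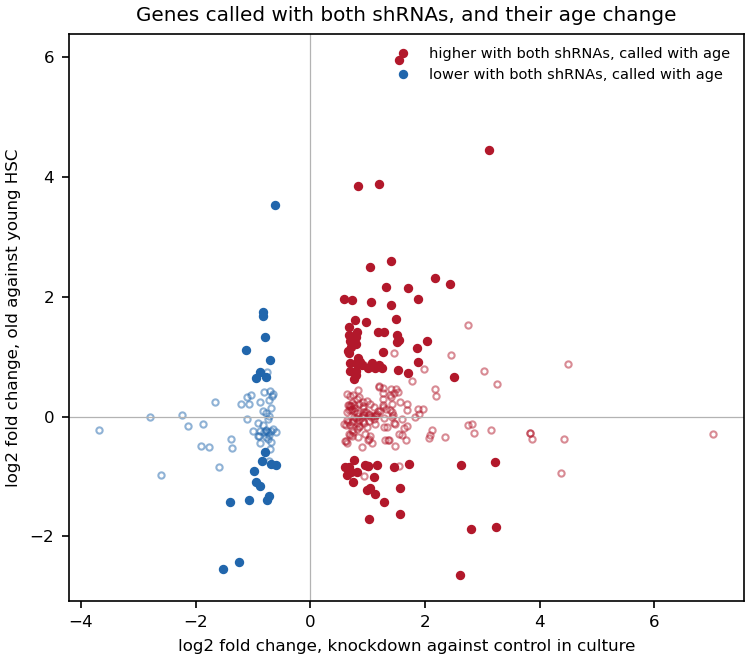
Log2 fold change of the knockdown in culture (horizontal axis) against log2 fold change of old over young HSCs (vertical axis) for genes called with both shRNAs and tested in both, with filled points for those called with age and open points for the others. Filled red points, higher with both shRNAs, number 55 above and 26 below the zero line of age.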

How the data were processed

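For these mRNA-seq libraries the authors used trim galore and cutadapt for trimming, STAR for alignment (mm10) and featureCounts for counting over GENCODE M22 genes. The deposited values are raw counts per gene. Settings for strand and multi-mapping reads were not given in the sources. Overlapping, antisense and near-identical genes may therefore share reads. Groups came from the sample labels. Genes that passed filterByExpr were tested with edgeR 4.0.16 (R 4.3.3), quasi-likelihood with robust fit and TMM scaling, 4 knockdown against 2 control libraries, and in a 3-group fit for each shRNA alone. The steps were tested on simulated data. Transplanted and young and old HSC counts were fitted in the same way, and spike-in rows of the age tables were left out. Alternatives were DESeq2 1.42.0, other scaling, filters and cutoffs, a replicate block and leaving out each library.

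The genes and the 39 lists were chosen with earlier results of these data known. Named genes are Btaf1, Tbp and neighbours; the 12 largest changes in each direction among both-shRNA genes with a mean of at least 5 CPM, no overlap with controls and no predicted or clone name; up to 4 members of each list by the smallest p; the 4 largest differences between the shRNAs in each direction; and up to 5 genes also called in transplanted HSCs or against age. For list counts by adjusted p and for all members of the cholesterol list, names were added after the values were seen. Some genes are not reported here. Gene positions are from GENCODE M21 on the same build.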

Additional observations from a re-analysis of the deposited data

Results flagged for a closer look

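For each list the summed CPM of the 4 knockdown libraries was searched for a library far from the others, as were 35 named genes in the same way, 74 groups in all. In 2 of them the gap to the nearest library took an unusually large part of the whole range: 0.904 for the shRNA processing list and 0.836 for glycolysis. Chance flags about 1 in 20 such groups when the 4 libraries are alike, but here they hold 2 shRNAs. The screen did not flag the interferon response list, whose sums were 1974, 1875, 5111 and 2521 CPM. The shRNA processing sums after knockdown were 525, 506, 506 and 504 CPM, with shRNA1 replicate 1 the highest, and those of glycolysis were 21980, 21470, 22080 and 22020 CPM, with shRNA1 replicate 2 the lowest.

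Of the 24 largest changes, 8 differed between the shRNAs at an adjusted p below 0.05 (edgeR), with no limit on the fold. The share of all tested genes that pass this rule is not given, since the 177 above also had to reach 1.5-fold. The log2 effect of shRNA2 minus that of shRNA1 was -0.462 for Rab11fip4, -0.556 for Dhrs3, -0.296 for Abca1, 0.662 for Gpr183, 0.384 for Cd48, -0.52 for Gem, -0.713 for Nr4a1 and 0.457 for Hdac9. The increases of Rab11fip4, Dhrs3 and Abca1 and the decreases of Cd48 and Hdac9 were larger with shRNA1, and the changes of Gpr183, Gem and Nr4a1 were larger with shRNA2.

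Between culture and transplanted HSCs 10 of the 24, which were chosen for their change in culture, differed by the interaction term. The log2 effect in culture minus that after transplantation was 4.57 for Chad, 2.06 for Rab11fip4, 1.88 for Dhrs3, 1.63 for Hpgds, 1.87 for Skil and 1.89 for Abca1 among the increases. Among the decreases it was -2.37 for Cd48, -1.03 for Bcam, -1.63 for Lgals1 and -0.941 for Ifngr2.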

How the results depend on the processing

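With 2 libraries per group the counts moved with the cutoff, the filter, the fit and the libraries used. Genes higher numbered 244 above 2-fold, 996 above 1.2-fold and 115 by adjusted p, and genes lower 70, 548 and 64 (354 without a filter on low counts). With both shRNAs the counts were 124, 559 and 95 higher and 25, 293 and 43 lower. Between the shRNAs they were 292, 1501 and 177 (375 with a filter of 1 CPM in 2 libraries). Called the same way after transplantation were 3, 50 and 0 instead of 12, and changed with age 27, 324 and 52 instead of 103. The rule of an adjusted p at any fold, added after the data were seen, gave 642 higher and 657 lower without a filter, and 813 and 1142 for the mean of both shRNAs in the 3-group fit. Leaving out each library gave 449 to 528 genes higher, 184 to 223 lower, 191 to 330 and 71 to 99 with both shRNAs, 559 to 793 between the shRNAs, 9 to 18 shared with transplantation, 86 to 109 changed with age, and 75 to 341 higher and 66 to 342 lower at any fold. The 220 named genes, of which 143 passed, gave 2844 comparisons of a gene with its value under an alternative. In 2453 the gene stayed on its side of the threshold, in 267 it lost its call, in 113 it gained one, in 11 without a call the sign changed, and 0 reversed with a call. Leaving out shControl replicate 1 or 2, which leaves a lone control assumed to vary like the other groups, accounted for 87 and 88 of those lost, and other causes were not tested. Genes under 1 CPM are the least certain at this depth. Replicate numbers are shared between groups, but deviations of same-numbered libraries correlated at -0.0276, 0.0064 and 0.0416 over all tested genes. No pairing was seen in these values, and whether same-numbered libraries share a culture or mouse is not stated. The replicate block changed the lower count at any fold to 210 and the mitotic one to 13, and the between-shRNA count to 592.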

Other observations

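Of 27 immediate early genes 0 passed higher and 1 lower, Klf6 (log2 -0.26, SE 0.06, adjusted p = 0.0189), with a median of -0.11. Of 19 STAT5 response genes 1 passed higher, Bcl6, a repressor of lymphoid and HSC genes at under 3 CPM (1.55, SE 0.30), and 2 passed lower, Socs2 and the kinase gene Pim2 (-0.22, SE 0.04). Of 22 hypoxia genes 2 passed higher and 3 lower. Egln1, an oxygen sensor, fell by 0.52 (SE 0.10), and Egln3 rose by 0.22 (SE 0.06). Ero1l, an oxidase of the endoplasmic reticulum, was at 162, 160, 86.2, 82.6, 118 and 120 CPM. Its groups did not overlap, its adjusted p was 0.238, and shRNA2 lay above shRNA1 by 0.49 (adjusted p = 3.59e-08).

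Of 24 glycolysis genes 1 passed in each direction, the lactate dehydrogenase chain Ldhb (0.28, SE 0.06) and the glucose transporter gene Slc2a3 (-0.17, SE 0.04). Of 16 genes of cyclin D and CDK inhibitors 2 passed higher, Rbl2 and Cdkn1a, and 1 lower, Cdkn1c. Of 21 endoplasmic reticulum chaperone genes 1 passed, the stress sensor Ern1 (0.30, SE 0.07), and of 20 heat shock genes 1, the mitochondrial chaperone Hspa9 (-0.16, SE 0.03). Of 26 Polycomb and DNA methylation genes 1 passed higher, Ezh1, and 2 lower, Dnmt3b and Rnf2. Of 17 tested Hox genes 0 passed by adjusted p in edgeR and 1 in DESeq2, and 3 had an unadjusted p below 0.05 in both. Of 23 replication-dependent histone genes 2 passed lower, both linker histones, Hist1h1b (-0.76, SE 0.13) and Hist1h1d (-0.81, SE 0.21).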
